A study of Sus scrofa with 6 samples.

Results

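The genes described here encode ribosomal proteins and translation factors, the parts and helpers of the machine that makes protein. They were chosen by symbol from the deposited gene tables: RPL or RPS followed by a digit (not RPS6K), RPLP1, RPLP2, RPSA, and EIF or EEF followed by a digit, without the EIF2AK kinases. This gave 64 of 4122 listed genes, of which 27 encode large-subunit and 18 small-subunit ribosomal proteins, 12 initiation factors or their binding proteins and 3 elongation factors. The remaining 4 carry EIF2C symbols. Of these, EIF2C1, EIF2C2 and EIF2C4 match AGO1, AGO2 and AGO4 in the RefSeq annotation, Argonaute proteins that act in RNA silencing and not in the translation cycle, and they are kept apart below. The other classes go by symbol, so EEF1E1, an auxiliary protein of the tRNA synthetase complex, counts among the elongation factors.

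RNA was sequenced from lymph node, spleen and thymus of RAG2 biallelic knockout pigs and of wild-type littermates, all aged 3 months. The RAG2 protein helps to cut and rejoin the antigen receptor genes of developing T and B cells. Each tissue and genotype has 1 library, 6 in all, so no difference below has a replicate check, no p-value can be given, and the spread between animals is unknown. How many pigs were used, whether the tissues of a genotype came from the same pig, and how their knockout allele is built is not stated in the labels.

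A ribosome joins a small subunit, which reads the mRNA, with a large subunit, which forms the peptide bond, and each subunit carries a set of proteins made in nearly equal numbers. Initiation factors bring the mRNA and the small subunit together, and elongation factors deliver the charged tRNAs. The mRNAs of most ribosomal proteins and of several elongation factors start with a pyrimidine tract through which mTOR signalling controls their translation, and lymphocytes raise ribosome production when they are activated and divide.

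Levels are FPKM as the authors deposited them, that is, fragments normalised for transcript length and sequencing depth. A log2 ratio compares the knockout library with the wild-type library of the same tissue, both with 1 FPKM added, and is positive where the knockout is higher. A gene counts as called where this ratio is at least 1 in size, which is a 2-fold difference. Ratios of scaled fragment counts, knockout over wild type, stand beside a 95% Clopper-Pearson interval that takes in counting error and nothing else. Fragments assigned to the listed genes numbered 2021583 in knockout and 1922562 in wild-type lymph node, 2514982 and 2084768 in knockout and wild-type spleen, and 2397922 and 2541724 in knockout and wild-type thymus. RPL23, RPL37 and EIF6 are listed at 0 in each of the 6 libraries. The other 61 genes had at least 1 FPKM in every tissue, namely 43 ribosomal protein genes, 14 factors and the 4 EIF2C genes. Genes of this kind have many near-identical copies in mammalian genomes, and how fragments shared between copies were assigned is not stated in the labels, so each level is uncertain to that extent.

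The markers of the tissues set the frame for what follows. RAG2 itself had 1072 FPKM in knockout and 606 FPKM in wild-type thymus. In lymph node it had 1.16 FPKM in the knockout and 0 in the wild type, and in spleen 0 in the knockout and 0.950 FPKM in the wild type. The transcript is thus present in the knockout thymus, and its level does not check the genotype labels. The 10 T cell markers found summed to 225 FPKM in knockout and 1692 FPKM in wild-type lymph node, 295 and 599 FPKM in knockout and wild-type spleen, and 3544 and 8641 FPKM in knockout and wild-type thymus. The 5 B cell markers found summed to 4.50 and 1585 FPKM in knockout and wild-type lymph node, 6.63 and 540 FPKM in knockout and wild-type spleen, and 186 and 156 FPKM in knockout and wild-type thymus, with POU2AF1 at 0 in knockout lymph node and knockout spleen. Wild-type thymus had the highest T cell sum and wild-type lymph node the highest B cell sum, so these markers do not go against the tissue labels. The 10 markers of dividing cells summed to 240 and 815 FPKM in knockout and wild-type lymph node, 496 and 596 FPKM in spleen, and 2936 and 4789 FPKM in thymus, in the same order. In tissue RNA, fewer cells of a type and less RNA per cell cannot be told apart.

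The translation genes held a smaller share of the transcript signal in the knockout lymph node and spleen than in wild type, and a similar share in both thymus libraries. They made up 22.5% of the summed FPKM in knockout and 30.9% in wild-type lymph node. In spleen they made up 14.9% in the knockout and 21.8% in the wild type, and in thymus 36.8% in the knockout and 35.4% in the wild type. Ribosomal proteins account for most of this, with 19.3% in knockout and 27.4% in wild-type lymph node, 12.8% and 18.8% in knockout and wild-type spleen, and 32.5% and 31.1% in knockout and wild-type thymus. The 14 factors above 0 held 3.11% in knockout and 3.44% in wild-type lymph node, 2.10% and 3.00% in knockout and wild-type spleen, and 4.23% and 4.24% in knockout and wild-type thymus. Counted as fragments, where long transcripts weigh more, the 64 genes held 14.6% in knockout and 21.4% in wild-type lymph node, 10.2% and 14.1% in spleen, and 23.4% in each thymus library. Lymph node and spleen thus differ in the same direction on both scales.

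**Figure D1:**
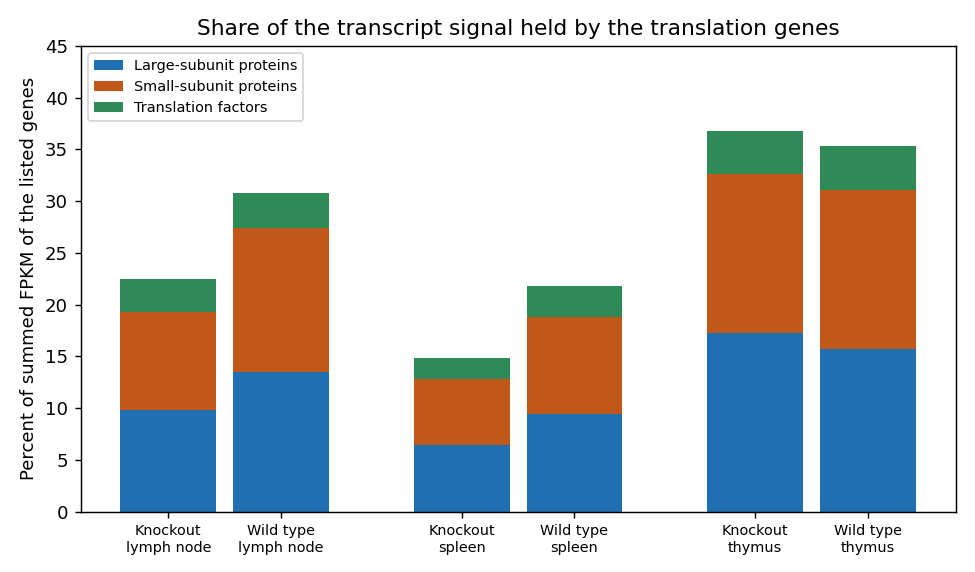
Percent of the summed FPKM of the listed genes held by large-subunit proteins, small-subunit proteins and translation factors, 1 bar per library (the EIF2C genes are too low to show). Knockout bars are lower than wild-type bars in lymph node and spleen, and in thymus the knockout bar, at 36.8% with the EIF2C genes, is slightly the higher.

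Ribosomal protein genes as a group were lower in the knockout lymph node. All 43 with reads had a log2 ratio below 0, under each scaling tried, with a median of -0.70 and a range of -1.45 for RPL15 to -0.24 for RPL7L1. Of the 2910 genes measured there, 50.4% had a ratio below 0, and their median was -0.0046. The counting interval lay below 1 for each of the 43, against 30.6% of all measured genes, and above 1 for none, against 31.0%. These genes are counted more deeply than most, with a median of 3842 fragments in the knockout and 5661 in the wild type, against 202 and 186 for all measured genes, so small differences leave 1 outside their interval more easily. The differences were moderate in size. RPL15 and RPS16 were called lower and no member was called higher, which is 2 of 61 members against 10.3% of all measured genes called lower and 15.3% called higher. RPS15 at -0.95 and RPL13 at -0.94 lay just outside the threshold. At a 1.5-fold threshold, 32 of the 43 ribosomal protein genes were lower and 0 higher, against 20.3% and 23.1% of all measured genes. The 18 small-subunit genes had a median of -0.80 and the 25 large-subunit genes one of -0.62. T cell, B cell and dividing-cell markers were lower in the same knockout library, 9 of 10, 5 of 5 and 9 of 10 of them by the 2-fold threshold, and markers of neutrophils and fat cells were higher. The 4 neutrophil markers summed to 527 FPKM in knockout and 13.4 FPKM in wild-type lymph node, and the 5 fat cell markers to 8754 FPKM in knockout and 106 FPKM in wild-type lymph node. The neutrophil marker LTF was an exception, below 1 FPKM in both, with 0.765 FPKM in the knockout and 0.802 FPKM in the wild type. HBB, a red cell gene, had 6738 FPKM in the knockout and 376 FPKM in the wild type. The red cell gene GATA1 went the other way, with 1.83 FPKM in the knockout and 3.29 FPKM in the wild type. KLF1, the last of these genes, was below 1 FPKM in both. The 6 macrophage markers summed to 2855 FPKM in knockout and 1299 FPKM in wild-type lymph node, with CD163 listed at 0 in each library, and 3 of them were called higher and 0 lower. Of the 5 fibroblast markers 1 was called higher and 1 lower, and of the 3 endothelial markers 1 was called higher. The part of these cells in the ribosomal protein ratios was not tested.

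In the knockout spleen the ribosomal proteins were lower too, with a median nearer 0. Of 43 genes, 42 had a log2 ratio below 0 under each scaling tried, against 51.0% of the 2849 genes measured, and the median was -0.46 against -0.0159 for all genes. The counting interval lay below 1 for 40 and above 1 for 1, RPL7L1, against 28.9% and 28.6% of all measured genes. RPL15 alone was called lower and no member higher, against 10.04% and 8.88% of all measured genes. At the 1.5-fold threshold 14 of the 43 were lower and 0 higher, against 19.4% and 17.5%. Here large-subunit genes had a median of -0.51 and small-subunit genes one of -0.43. B cell markers were lower by 2-fold or more in 5 of 5 cases and T cell markers in 5 of 10, while 0 of 10 dividing-cell markers were called. Fibroblast markers were lower by 2-fold or more in 5 of 5 cases and summed to 1833 FPKM in the knockout and 4979 FPKM in the wild type. Of the 6 macrophage markers 2 were called higher and 2 lower, MSR1 with 45.2 FPKM in the knockout and 321 FPKM in the wild type and SIGLEC-1 with 3.75 FPKM in the knockout and 60.1 FPKM in the wild type being the lower ones. Neutrophil markers summed to 1705 FPKM in the knockout and 40.4 FPKM in the wild type. The red cell genes split, HBB being lower with 18970 FPKM in the knockout and 41406 FPKM in the wild type. GATA1, with 9.53 FPKM in the knockout and 1.33 FPKM in the wild type, and KLF1, with 8.96 FPKM in the knockout and 1.14 FPKM in the wild type, were higher. Of the fat cell markers 1 of 5 was called lower, and of the endothelial markers 0 of 3 were called. The part of these cells was not tested here either.

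In the knockout thymus the group did not shift as a whole. The median was -0.13, with 31 of 43 genes below 0, against 50.03% of the 2908 genes measured and a median of 0 for all of them. This split depends on the scaling, being 23 below and 20 above when counts were scaled to their total, 28 and 15 with TMM factors and 32 and 11 with DESeq2 size factors. The counting interval lay below 1 for 27 and above 1 for 9, against 31.0% and 31.6% of all measured genes. RPL15 was again the one member called lower and none was called higher, against 10.9% and 15.2% of all measured genes, and EIF3I at -0.95 and EEF1E1 at -0.91 lay just outside the threshold. At 1.5-fold, 2 of the 43 ribosomal protein genes were lower and 0 higher, against 18.6% and 24.0%. The T cell markers were lower by 2-fold or more in 7 of 10 cases in this library and the B cell markers in 3 of 5. The dividing-cell markers were lower to that extent in 1 of 10 cases, and the neutrophil markers summed to 2111 FPKM in knockout and 118 FPKM in wild type. Fat cell markers summed to 1710 FPKM in knockout and 457 FPKM in wild-type thymus, with 3 of 5 called higher and LPL at 266 and 289 FPKM. Macrophage markers summed to 367 FPKM in knockout and 87.1 FPKM in wild-type thymus. Of these 6 markers 3 were called higher and 1 lower, MARCO, with 1.39 FPKM in the knockout and 14.4 FPKM in the wild type. HBB had 4782 FPKM in the knockout and 912 FPKM in the wild type, 3 of 3 endothelial markers were called higher, and of the 5 fibroblast markers 1 was called higher and 1 lower. Their part in the ratios was not tested.

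**Figure D2:**
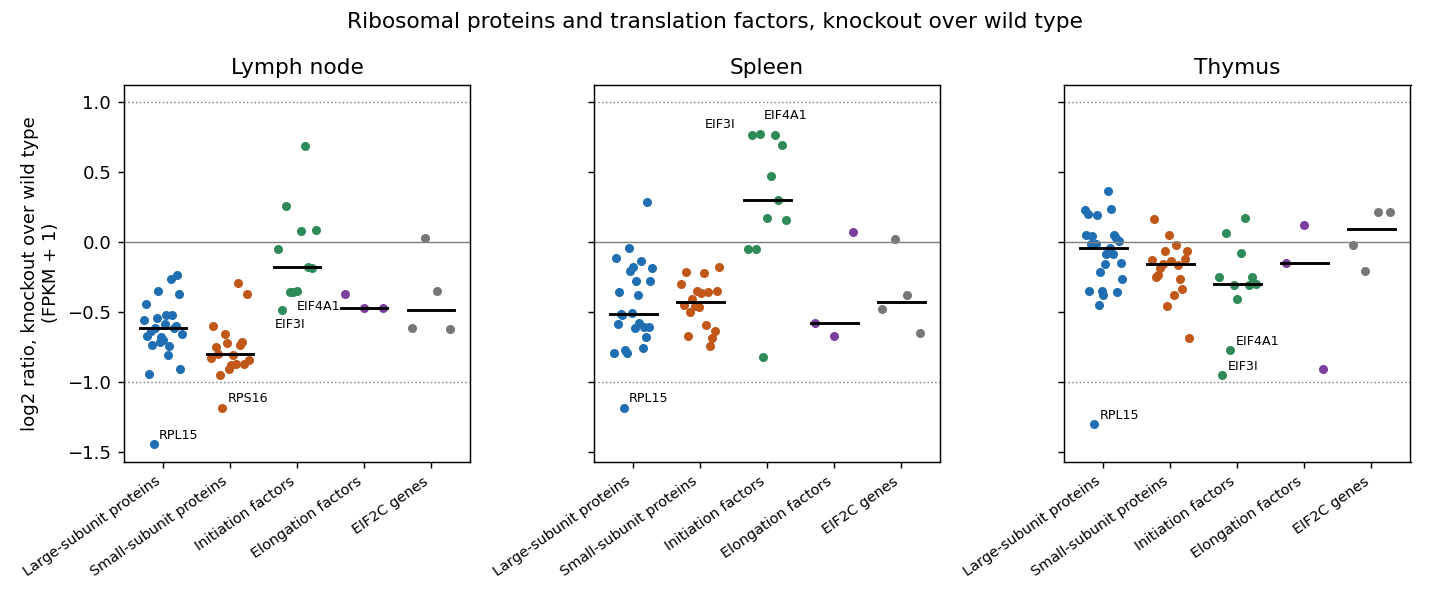
Log2 ratio of knockout over wild type (FPKM + 1) for each gene above 0, by class, in the 3 tissues, with the class median as a bar and the 2-fold thresholds as dotted lines. Ribosomal proteins lie below 0 in lymph node and, but for RPL7L1, in spleen, and around 0 in thymus, while RPL15 lies beyond the lower threshold in each tissue and EIF4A1 and EIF3I change side.

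The level of a ribosomal protein mRNA also differed between tissues. The median ribosomal protein gene had 3150 FPKM in knockout and 4941 FPKM in wild-type lymph node, 2371 and 3209 FPKM in knockout and wild-type spleen, and 5846 and 6527 FPKM in knockout and wild-type thymus. Thymus stood highest and spleen lowest in either genotype, although the FPKM tables were normalised separately for each tissue. Within a tissue the order of the genes was nearly the same in both libraries, with Spearman's rho of 0.971 in lymph node, 0.962 in spleen and 0.960 in thymus across 43 genes. RPS3 was the highest and RPL7L1 the lowest in each library. The summed large-subunit FPKM over the summed small-subunit FPKM was 1.04 in knockout and 0.973 in wild-type lymph node, 1.02 in both spleen libraries, and 1.13 in knockout and 1.02 in wild-type thymus. In FPKM the sums of the listed genes of the 2 subunits were thus close to equal, with the knockout thymus tilted furthest towards the large one. These sums cover 25 large-subunit and 18 small-subunit genes above 0. Counted as fragments, the large-subunit genes held more in every library. The tilt was then furthest in knockout lymph node, with 104803 large-subunit and 72788 small-subunit fragments, ahead of knockout thymus with 214036 and 150586. The balance of the subunits therefore depends on the scale.

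RPL15, a core protein of the large subunit that is mutated in some human patients with Diamond-Blackfan anaemia, stood furthest below the group. Its gene lies at chr13:10716373-10719959 (Sscrofa11.1). It had 306 FPKM in knockout and 836 FPKM in wild-type lymph node. In spleen it had 232 FPKM in the knockout and 528 FPKM in the wild type, and in thymus 529 and 1308 FPKM. Within each tissue the knockout library was well below the wild-type library, although the knockout thymus and the wild-type spleen had about the same level. Scaled fragments in the knockout were 0.368 times those of wild type in lymph node (0.346 to 0.39, from 1470 and 3826 fragments). The ratio was 0.442 in spleen (0.413 to 0.473, 1279 and 2479 fragments) and 0.405 in thymus (0.386 to 0.424, 2603 and 6281 fragments). As a share of the ribosomal protein FPKM, RPL15 made up 0.204% in knockout and 0.340% in wild-type lymph node, 0.210% and 0.343% in spleen, and 0.171% and 0.396% in thymus. Its log2 ratio minus the ribosomal protein median was -0.74 in lymph node, -0.72 in spleen and -1.18 in thymus. No other ribosomal protein was more than 0.5 from that median in each of the 3 tissues. In lymph node RPL15 was the one gene so far out, in spleen RPL7L1 joined it on the other side, and in thymus RPSA on the same side. The 3 ratios may not be independent, since 1 pig may have given all 3 knockout samples.

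**Figure D3:**
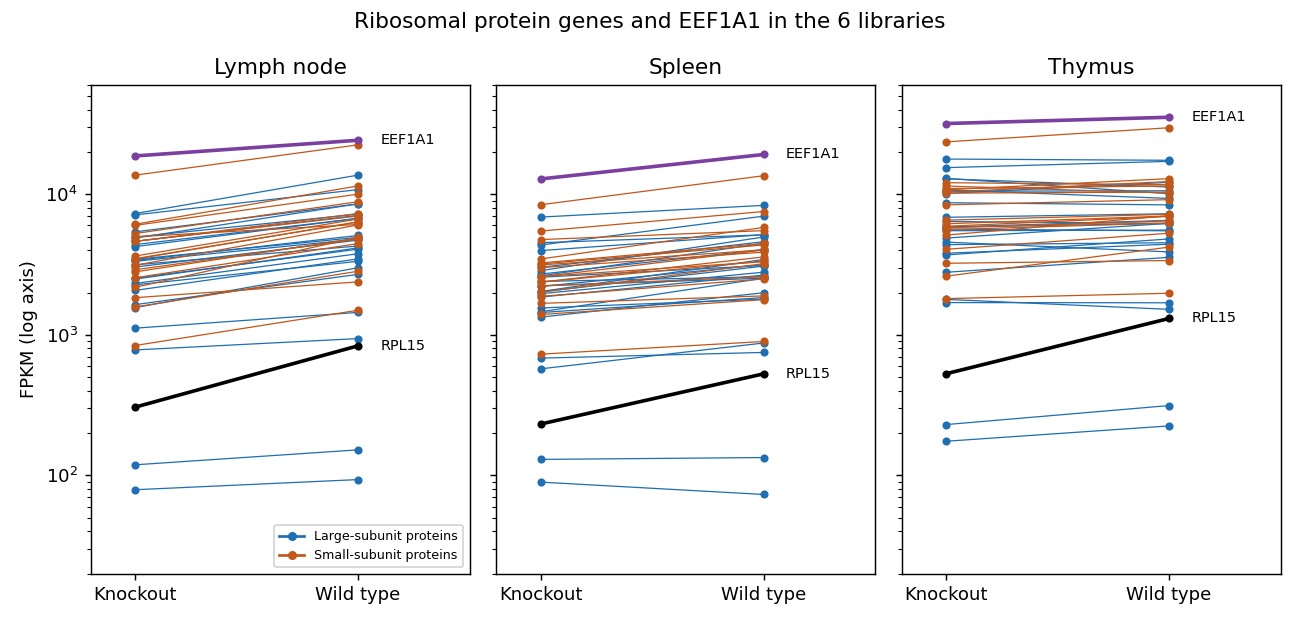
FPKM on a log axis of the 43 ribosomal protein genes above 0 and of EEF1A1, joined between the knockout and the wild-type library of each tissue. The lines slope up towards wild type in lymph node and spleen and are nearly level in thymus, and RPL15 (black) has the steepest slope in each tissue.

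RPS16, the other gene called in lymph node, encodes a small-subunit protein near the decoding site and lies at chr6:48085684-48088368. It had 2178 FPKM in knockout and 4951 FPKM in wild-type lymph node, a scaled fragment ratio of 0.448 (0.426 to 0.472). In spleen it had 1880 and 2499 FPKM in knockout and wild type, and in thymus 5605 and 6249 FPKM. The log2 ratios were -1.18 in lymph node, -0.41 in spleen and -0.16 in thymus. RPS16 thus lay -0.48 from the group median in lymph node and close to it in the other tissues. On the other side of that median, RPL7L1 lay nearly as far out in lymph node, at 0.46.

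RPSA, a small-subunit protein also known as a laminin receptor and mutated in human isolated congenital asplenia, differed in its ratio by tissue. It had 1579 FPKM in knockout and 2836 FPKM in wild-type lymph node, 1675 and 1893 FPKM in knockout and wild-type spleen, and 2615 and 4211 FPKM in knockout and wild-type thymus. In thymus this was a log2 ratio of -0.69, the lowest of the small-subunit genes there, and in spleen, at -0.18, the highest of them. RPS18 at -0.46 and RPS23 at -0.38 came next to RPSA in thymus, and RPS20 at 0.05 and RPS26 at -0.02 were among the highest small-subunit genes there. In lymph node the lowest small-subunit genes after RPS16 were RPS15 at -0.95 and RPS20 at -0.91, and the highest were RPS28 at -0.29 and RPS4 (annotated as RPS4X) at -0.37. In spleen the lowest were RPS29 at -0.74, RPS3 at -0.69 and RPS13 at -0.67, and the highest after RPSA were RPS12 at -0.21 and RPS23 at -0.22. Each of the 18 small-subunit genes was below 0 in lymph node and spleen and 16 of them in thymus, although some there, RPS4 and RPS26 among them, turned above 0 with counts scaled to their total.

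Among the large-subunit genes the order also differed by tissue. In lymph node RPL13 at -0.94 and RPLP1 at -0.91 followed RPL15 at the low end. In spleen RPL26 and RPL10 did, each at -0.79, RPL10 being a protein that joins the large subunit late in its assembly. In thymus RPL26 and RPL10 were on the other side of 0, at 0.19 and 0.23, and RPL35, which sits near the exit of the peptide tunnel, was the highest ribosomal protein gene at 0.36. RPL35 had 12984 FPKM in knockout and 10105 FPKM in wild-type thymus, a ratio of 1.28 (1.25 to 1.32). In lymph node it had 4878 and 8559 FPKM and in spleen 3975 and 5164 FPKM, lower in the knockout in both. RPL3, at the peptidyl transferase centre, was among the lowest in thymus at -0.38. RPL36AL was at -0.27 in lymph node, -0.13 in spleen and 0.24 in thymus, and RPL10A at -0.11 was the third highest large-subunit gene in spleen. RPL5 and RPL11, which bind the 5S ribosomal RNA and, when unassembled, the p53 regulator MDM2, had ratios of -0.52 and -0.67 in lymph node, -0.76 and -0.58 in spleen, and -0.08 and 0.20 in thymus, where RPL5 turned above 0 with counts scaled to their total.

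The paralogues with weak expression behaved less like the rest. RPL7L1, a relative of RPL7, had 79.1 FPKM in knockout and 93.4 FPKM in wild-type lymph node, 89.6 and 73.2 FPKM in knockout and wild-type spleen, and 175 and 225 FPKM in knockout and wild-type thymus. Its spleen ratio of 1.23 (1.09 to 1.38) was the one ribosomal protein ratio there whose interval lay above 1. RPL26L1, a close copy of RPL26, had 119 and 152 FPKM in knockout and wild-type lymph node, 130 and 134 FPKM in spleen, and 230 and 314 FPKM in thymus. The ratio of RPL26L1 to RPL26 fragments in the knockout was 1.67 times that in the wild type in spleen (1.37 to 2.03), 0.641 times in thymus (0.557 to 0.737) and 1.13 times in lymph node, where the interval (0.927 to 1.39) included 1.

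**Figure D4:**
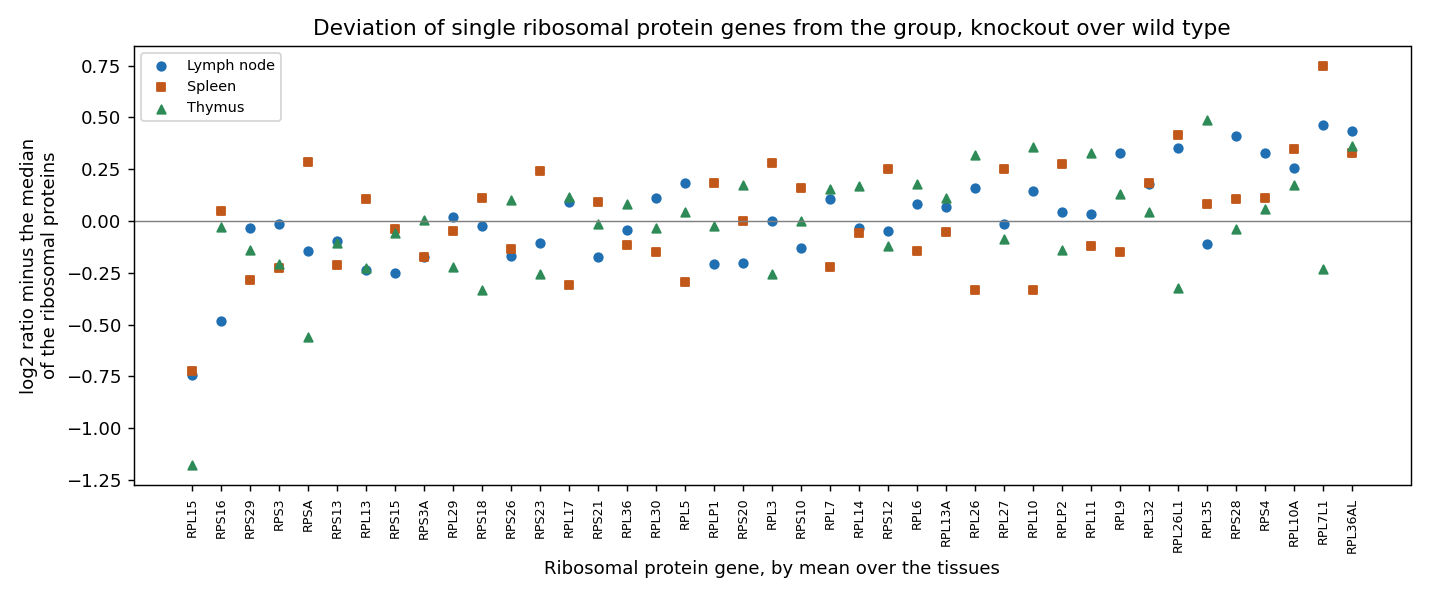
Log2 ratio of 41 ribosomal protein genes minus the median of all 43, in the 3 tissues, ordered by the mean over tissues. RPL15 lies far below the others in lymph node, spleen and thymus (-0.74, -0.72 and -1.18), and most genes lie within 0.25 of the median, 34 of all 43 in lymph node, 29 in spleen and 31 in thymus.

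The log2 ratios of single genes were at most weakly related between tissues. Across the 43 genes Pearson's r of the log2 ratios was 0.38 between lymph node and spleen, 0.44 between lymph node and thymus, and 0.01 between spleen and thymus, and Spearman's rho was 0.09, 0.29 and -0.31 for the same pairs. These are correlations over genes, which are not independent; all genes of a tissue share the same pair of libraries, and RPL15 is among the 43. Of the 43 genes, 30 were below 0 in each of the 3 tissues, 25 of them with intervals below 1 throughout, and none was above 0 in each. With counts scaled to their total, 8 of the 43 thymus ratios turned above 0.

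The highest levels need a remark on how they were counted. EEF1A1, RPS3, RPLP1, RPL7, RPS20, RPS29, RPS12, RPLP2, RPL35 and RPL26 had the highest mean FPKM over the 6 libraries. RPS3, a protein at the mRNA entry site, had 13686 and 22490 FPKM in knockout and wild-type lymph node, 8427 and 13552 FPKM in spleen, and 23607 and 29757 FPKM in thymus. RPLP1 and RPLP2, which form the acidic stalk that engages elongation factors, had ratios of -0.91 and -0.66 in lymph node, -0.28 and -0.19 in spleen, and -0.15 and -0.26 in thymus. In lymph node the stalk proteins thus lay on either side of the group median, and RPS20, RPS29 and RPS12 were at -0.91, -0.74 and -0.75. RPL7 had 17814 FPKM in knockout and 17461 FPKM in wild-type thymus on no more than 1145 and 1086 fragments. Each RPL7 fragment was worth 16.1 FPKM in wild-type thymus, against 3.94 for RPS29, 2.58 for RPS3 and 0.285 for RPL3, so the RPL7 level rests on the length the authors' software used. The log2 ratios from FPKM and from fragments differed by more than 0.1 for RPL7 in lymph node and for RPL7, RPS29 and RPS3 in spleen, with the same sign on both scales.

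The elongation factors EEF1A1 and EEF1B2 were lower in knockout lymph node and spleen, and EEF1E1, which is grouped with them by symbol, in knockout lymph node. EEF1A1, which brings charged tRNAs to the ribosome, was the gene with the most fragments in each library but the knockout spleen, where the ferritin light chain FTL exceeded it. It had 18746 FPKM in knockout and 24241 FPKM in wild-type lymph node. In spleen it had 12858 and 19206 FPKM in knockout and wild type, and in thymus 31879 and 35331 FPKM. Knockout values were lower in each tissue, with ratios of 0.776 (0.770 to 0.783), 0.673 (0.667 to 0.680) and 0.902 (0.896 to 0.908) in lymph node, spleen and thymus. As a share of fragments EEF1A1 took 4.45% in knockout and 5.77% in wild-type lymph node, 2.82% and 4.32% in spleen, and 6.54% and 6.67% in thymus. EEF1B2, a subunit of the exchange factor that reloads EEF1A1 with GTP, had 1473 and 2039 FPKM in knockout and wild-type lymph node, 899 and 1431 FPKM in spleen, and 2868 and 2632 FPKM in thymus, so that it was lower in the knockout in 2 tissues and higher in thymus at a ratio of 1.09 (1.06 to 1.12). EEF1E1, an auxiliary protein of the tRNA synthetase complex, had 24.9 and 34.9 FPKM in lymph node, 35.8 and 34.1 FPKM in spleen, and 25.8 and 49.3 FPKM in thymus, knockout before wild type. Its thymus ratio of 0.524 (0.389 to 0.701) rests on 73 and 136 fragments.

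The initiation class did not follow the ribosomal proteins in the spleen. Its median log2 ratio over 11 genes was -0.18 in lymph node, 0.30 in spleen and -0.30 in thymus. The class takes in the inhibitors EIF4EBP1 and EIF4EBP3, the possible repressor EIF4E2, and EIF4A3 of the exon junction complex. In spleen these were at 0.77, 0.30, 0.475 and 0.17. The others split, with EIF4A1, EIF3I, EIF4G1 and EIF4H at 0.77, 0.76, 0.69 and 0.16. EIF3D, EIF3L and EIF4A2 were at -0.05, -0.05 and -0.82. Over all 14 factors the median was -0.27 in lymph node, 0.16 in spleen and -0.28 in thymus, with 10, 5 and 11 of 14 below 0. By the counting interval, 8 factors were below 1 and 3 above in lymph node, 3 below and 7 above in spleen, and 9 below and 1 above in thymus. The shares of all measured genes below and above were 30.6% and 31.0% in lymph node, 28.9% and 28.6% in spleen, and 31.0% and 31.6% in thymus. No factor was called at 2-fold in any tissue. At 1.5-fold, 4 factors were higher and 2 lower in spleen, 1 higher and 0 lower in lymph node, and 0 higher and 3 lower in thymus. Of all measured genes 17.5% were higher and 19.4% lower in spleen, 23.1% and 20.3% in lymph node, and 24.0% and 18.6% in thymus, so the 2 lower in spleen and the 3 lower in thymus are close to the share over all genes.

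The cap-binding complex eIF4F unwinds the start of an mRNA and recruits the small subunit, and its helicase is encoded by the related genes EIF4A1 and EIF4A2. EIF4A1 had 636 FPKM in knockout and 815 FPKM in wild-type lymph node, 1223 and 714 FPKM in knockout and wild-type spleen, and 937 and 1602 FPKM in knockout and wild-type thymus. EIF4A2 had 1315 and 1682 FPKM in knockout and wild-type lymph node, 739 and 1308 FPKM in spleen, and 1470 and 1823 FPKM in thymus. EIF4A1 was thus higher in the knockout spleen and lower in the other knockout tissues, whereas EIF4A2 was lower in each. The FPKM of EIF4A1 over that of EIF4A2 was 1.65 in knockout and 0.546 in wild-type spleen, a 3.03-fold difference in fragments (2.86 to 3.22). The ratio was 0.637 in knockout and 0.879 in wild-type thymus, a difference in the other direction (0.725, 0.689 to 0.763), and 0.483 and 0.484 in the lymph node libraries. EIF4A1 exceeded EIF4A2 in the knockout spleen and in no other library. The pair was picked out after its values were seen.

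EIF4G1, the scaffold of eIF4F, had 208 and 237 FPKM in knockout and wild-type lymph node, 414 and 256 FPKM in spleen, and 206 and 246 FPKM in thymus. In spleen its ratio of 1.62 (1.56 to 1.69) was close to the 1.72 (1.65 to 1.81) of EIF4A1. EIF4EBP1, which holds the cap-binding protein eIF4E inactive until mTOR phosphorylates it, had 190 and 118 FPKM in knockout and wild-type lymph node, 326 and 191 FPKM in spleen, and 177 and 157 FPKM in thymus. Its ratios were 1.65 (1.27 to 2.14), 1.76 (1.45 to 2.14) and 1.13 (0.890 to 1.43), above 1 beyond counting error in lymph node and spleen. EIF4EBP1 was the highest of the 61 genes in lymph node. The sister inhibitor EIF4EBP3 had between 17.5 and 25.5 FPKM in the 6 libraries on 27 to 40 fragments, and its intervals included 1 in each tissue. EIF4E2, a cap-binding relative of eIF4E that can repress translation, had a ratio of 1.41 (1.12 to 1.80) in spleen and intervals that included 1 in lymph node and thymus. EIF4H, a helper of the helicase, had ratios of 1.06 (1.02 to 1.12), 1.12 (1.07 to 1.17) and 0.813 (0.784 to 0.843) in lymph node, spleen and thymus. EIF4A3, a related helicase of the exon junction complex, had 0.786 (0.696 to 0.888), 1.14 (1.01 to 1.28) and 0.752 (0.694 to 0.816).

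The large factor eIF3, which keeps the small subunit ready for mRNA, is represented by 3 subunits whose ratios differed from each other. EIF3I had 156 FPKM in knockout and 220 FPKM in wild-type lymph node, 227 and 133 FPKM in knockout and wild-type spleen, and 268 and 520 FPKM in knockout and wild-type thymus. EIF3L had 418 and 350 FPKM in lymph node, 289 and 299 FPKM in spleen, and 682 and 653 FPKM in thymus, knockout before wild type. EIF3D, a subunit that can bind the mRNA cap, had 331 and 343, 279 and 288, and 497 and 590 FPKM in the same libraries. EIF3I lay on either side of 0 by tissue while the other subunits lay nearer to it, with log2 ratios of -0.49, 0.76 and -0.95 for EIF3I in lymph node, spleen and thymus, 0.26, -0.05 and 0.06 for EIF3L, and -0.05, -0.05 and -0.25 for EIF3D, whose sign in lymph node turned with TMM factors. Relative to EIF3L, EIF3I fragments in the knockout were 0.596 times those of wild type in lymph node (0.520 to 0.684), 1.78 times in spleen (1.54 to 2.05) and 0.494 times in thymus (0.448 to 0.545). This pair too was chosen after its values were seen.

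**Figure D5:**
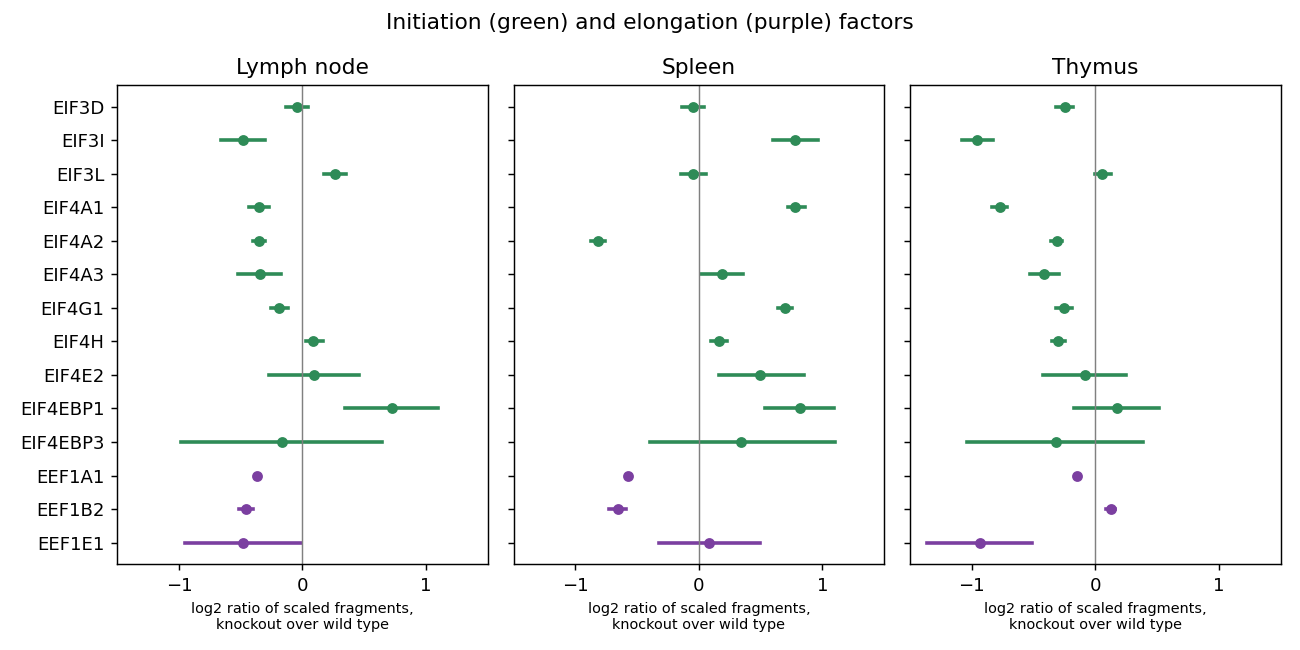
Log2 ratio of scaled fragments, knockout over wild type, with 95% counting intervals as bars, for 11 initiation factors or binding proteins (green) and 3 elongation factors (purple) in the 3 tissues. EIF3I and EIF4A1 lie right of 0 in spleen and left of it in lymph node and thymus, while EIF4A2 and EEF1A1 lie left of 0 throughout.

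The EIF2C genes were low, between 30.6 and 82.1 FPKM over the 6 libraries. Their median log2 ratio was -0.48 in lymph node, -0.43 in spleen and 0.09 in thymus. EIF2C4 had the lowest ratios in lymph node and spleen, with 45.6 and 70.6 FPKM in knockout and wild-type lymph node, 30.6 and 48.6 FPKM in spleen, and 64.4 and 55.4 FPKM in thymus.

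Other genes of the translation pathway were present in part. Of 30 ribosome assembly factors sought, 8 were listed, and in spleen they differed from the ribosomal proteins in direction, with 7 of 8 above 0 in the knockout and a median log2 ratio of 0.68. EMG1, a methyltransferase of the small-subunit precursor, had 153 FPKM in knockout and 37.6 FPKM in wild-type spleen, 111 and 41.6 FPKM in lymph node, and 111 and 65.8 FPKM in thymus, and was called higher in spleen and lymph node. The gene listed as BYS1, the older name of the small-subunit assembly factor bystin, had 52.0 FPKM in knockout and 24.6 FPKM in wild-type spleen, called higher. In thymus it had 21.0 and 68.2 FPKM, called lower together with DKC1, the pseudouridine synthase dyskerin, which had 94.7 and 191 FPKM. The medians of the 8 genes were -0.06 in lymph node and -0.39 in thymus. In spleen 2 of the 8 were called higher, against 8.88% of all measured genes. In lymph node 1 was called higher, against 15.3%, and in thymus 2 were called lower, against 10.9%.

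Of 9 further genes with a pyrimidine tract at the start of their mRNA, 7 were listed, GNB2L1 at 0 throughout. The other 6 had medians of -0.46 in lymph node, -0.23 in spleen and -0.10 in thymus, and none was called in any tissue. FAU, which encodes a ribosomal protein as a fusion and so lies outside the rule by symbol, had log2 ratios of -0.68 in lymph node, -0.25 in spleen and -0.39 in thymus. HNRNPA1, an RNA-binding protein, was above 0 in lymph node at 0.11 and in spleen at 0.43. Of 18 genes listed under MRPL or MRPS symbols, which mark the mitochondrial ribosome, 17 were measured. Their medians were -0.01 in lymph node, 0.38 in spleen and -0.32 in thymus. The mitochondrial translation factors sought beside them were not listed. In spleen 5 of the 17 were below 0, against 51.0% of all measured genes. There MRPS28 was called higher, with 61.7 FPKM in knockout and 27.1 FPKM in wild type, and 1 of 17 is no more than the 8.88% of all genes. In thymus 15 of the 17 were below 0, against 50.03% of all measured genes, and none was called. Cytoplasmic and mitochondrial ribosomal protein genes thus had medians of opposite sign in spleen and of the same sign in thymus. Of 22 tRNA synthetase genes, 4 were listed, and AIMP2, a scaffold of the synthetase complex, was called lower in thymus with 20.6 and 43.8 FPKM in knockout and wild type, 1 of 4 against 10.9% of all genes. Of 19 genes that control translation, 5 were listed, and MYC, a transcription factor that drives ribosome production, was called lower in lymph node with 44.3 and 125 FPKM in knockout and wild type, 1 of 5 against 10.3% of all genes. Of 8 termination and recycling genes, 0 were listed.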

How the data were processed

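Total RNA was extracted with the RNeasy Mini kit and libraries were made with the TruSeq Stranded Total RNA kit, per the labels' protocols. The submitters' processing notes name FastQC 0.11.9, Trimmomatic 0.39, STAR 2.7.9a, Cufflinks 2.2.1 and the build Sscrofa11.1 but no settings, annotation or strand handling. The authors deposited 1 table of FPKM values and 1 table of estimated counts per tissue, normalised separately for each tissue. Within 0.02, 97.0 to 99.2% of the deposited counts in a library were whole multiples of 1 step, between 0.925 and 1.08. Counts were divided by it and rounded to whole fragments. Every sample column was used (0 left out).

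Genes with at least 1 FPKM in a library of the tissue counted as measured. The threshold was set on log2(FPKM + 1), and intervals are 95% Clopper-Pearson intervals of fragment ratios scaled by the step. With 1 library per tissue and genotype no test was made, and no genotype fit across tissues, since the tissues may share animals. Symbols matched RefSeq for Sscrofa11.1 directly for 59 genes, through an older name for 4 and not for 1. Coordinates count from 1. Named genes are the 10 highest by mean FPKM, those called, the 3 highest and 3 lowest per class and tissue, paralogues, and the subunits of each complex. Some genes that this takes in are not reported here. The genes, lists and rule were chosen with earlier results of these data known. The calculations were tested on simulated data. Alternatives used counts scaled to their total, edgeR's TMM factors and DESeq2's size factors, other pseudocounts and minimums, and a 1.5-fold threshold. Tools were Python 3.11.15, numpy 2.4.6, pandas 2.3.3, scipy 1.17.1, matplotlib 3.10.9, R 4.3.3, edgeR 4.0.16 and DESeq2 1.42.0.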

Additional observations from a re-analysis of the deposited data

Results flagged for a closer look

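EIF3I and EIF4A1 stood out because knockout and wild type differed in opposite directions in spleen and thymus. The log2 ratio of EIF3I was 0.76 in spleen and -0.95 in thymus, 1.71 apart, and that of EIF4A1 was 0.77 in spleen and -0.77 in thymus, 1.55 apart. With 1 library per tissue and genotype the difference between the tissues was not tested.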

How the results depend on the processing

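Of the values that summarise the group, 112 alternatives left the value within its spread or its count within 1.5 times, and 14 did not. The 112 include alternatives that could not act. The lowest of the 61 members, EIF4EBP3, had at least 17.5 FPKM and 27 fragments, so minimums of 5 FPKM and 10 fragments removed none. All 14 came from the scaling of counts, the 1.5-fold threshold or the share of fragments. No median changed sign. At a 1.5-fold threshold 1 member was called higher and 34 lower in lymph node, 4 higher and 17 lower in spleen, and 5 lower in thymus, since a lower threshold admits more genes. With TMM factors the ribosomal protein median in lymph node was -0.58. With counts scaled to their total the thymus medians were -0.0073 for ribosomal proteins and -0.16 for factors, and the median of all genes there moved to 0.12. The share of fragments in place of FPKM was 14.6% in knockout and 21.4% in wild-type lymph node, 10.2% and 14.1% in spleen, and 23.4% and 23.4% in thymus, since fragments are not divided by transcript length. Of 810 values of members named in the text under 6 alternatives, 9 had the other sign. These were the values of EIF3D in lymph node, EIF2C2 in spleen, and EIF2C1 and RPS26 (2 alternatives each), EIF4E2, RPL5 and RPS4 in thymus. All 9 came with counts scaled to their total or with TMM factors. The other pseudocounts, which are among the 6 alternatives, cannot change a sign, so the values under them do not check direction. Members on under 200 fragments, such as EIF4EBP3, EEF1E1 and EIF4E2, are limited by depth. No library could be left out, since each group has 1.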
